A study of Mus musculus with 3 samples.

Results

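The interleukin 6 and 12 family was followed across 3 libraries of cytosolic total RNA from mouse bone marrow-derived macrophages. Its 10 members were chosen by gene symbol, out of 55536 annotated genes: the single-chain ligands Il6, Lif and Osm, the alpha subunits Il12a, Il23a and Il27, the beta subunits Il12b and Ebi3, and the receptor chains Il6ra and Il6st. No measured value served as a filter, but the choice was made with earlier results of these data known. The study holds 1 group, macrophages grown from C57BL/6J bone marrow, with no transgene or knockout named in the labels. All 3 cultures had 100 ng/ml Lipid A, the TLR4-binding part of bacterial lipopolysaccharide, for 12 h, were washed and rested for 12 h, and were given 100 ng/ml Lipid A a second time for 90 min before harvest. The labels give all 3 the same donor record and give no sex or age for it, so the spread and the p-values below measure variation between these samples only. Macrophages never exposed, or exposed once, were not analysed here, and the values below are therefore levels and not responses.

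Interleukin 6 acts through the receptor chain Il6ra, which then engages the shared signalling chain gp130, encoded by Il6st. The heterodimeric cytokines pair an alpha subunit with a beta subunit: Il12a with Il12b is IL-12, Il23a with Il12b is IL-23, Il27 with Ebi3 is IL-27, and Il12a with Ebi3 is IL-35. In macrophages these cytokine genes are classical targets of TLR4 signalling, induced through NF-kappaB and C/EBP factors, and their messenger RNAs are often short-lived because AU-rich stretches in the 3′ untranslated region (3′ UTR) recruit decay proteins.

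Depth was 40730514, 70484996 and 49726063 expected counts for replicates 1, 2 and 3, so that 1 TPM (a level corrected for gene length and scaled to the library) on a gene of 2 kb effective length rested on 125, 237 and 177 counts. Nuclear protein-coding genes took 33.2, 29.6 and 28.0% of all TPM. All 8 macrophage markers, among them Lyz2 and Adgre1, had at least 10 TPM in every library, and their summed level was 4900.0, 5552 and 4893 TPM. Of the neutrophil markers 3 of 8 were detected, namely Csf3r, S100a9 and S100a8, with a summed level of 47.9, 33.1 and 43.5 TPM, while Ly6g and Retnlg had 0 counts. Detection was set at 1 TPM or more in every library. The dendritic cell list had 1 of 8 markers detected, Ccr7, with a summed level of 2.23, 1.78 and 2.23 TPM, and Cd209a had 0 counts. Of the B and plasma cell markers 1 of 6 was detected, Cd79b, with a sum of 1.10, 1.23 and 1.82 TPM. No marker of T and NK cells (8 genes, sums of 0.130, 0.120 and 0.280 TPM), of stromal and endothelial cells (8 genes, 1.14, 0.870 and 1.08 TPM) or of mast cells and basophils (6 genes, 0.540, 0.260 and 0.350 TPM) was detected. In bulk RNA, fewer cells expressing a gene and less RNA of it per cell cannot be told apart.

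The promoters of the members differ in their sequence, and those of Il6, Il12b, Ebi3 and Il12a are shown because the levels below turn on these genes. For Il12a the window precedes the annotated start of the transcript to which its few counts were assigned, since start sites were not measured. Each window is the 250 bases before the RefSeq start on GRCm38.p6 (mm10), written 5′ to 3′ on the strand of the gene, with motif matches in capitals.
Il6, chr5:30012864-30013113 (plus strand): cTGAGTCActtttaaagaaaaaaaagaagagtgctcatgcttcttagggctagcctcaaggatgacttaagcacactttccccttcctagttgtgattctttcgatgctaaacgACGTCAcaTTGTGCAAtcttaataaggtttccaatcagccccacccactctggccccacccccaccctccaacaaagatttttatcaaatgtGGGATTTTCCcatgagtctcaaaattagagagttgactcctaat
Ebi3, chr17:55952373-55952622 (plus strand): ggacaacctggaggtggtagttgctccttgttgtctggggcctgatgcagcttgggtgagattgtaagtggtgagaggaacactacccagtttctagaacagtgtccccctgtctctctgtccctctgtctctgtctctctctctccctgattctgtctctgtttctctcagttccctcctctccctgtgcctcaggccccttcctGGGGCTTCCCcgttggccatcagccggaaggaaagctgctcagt
Il12b, chr11:44399813-44400062 (plus strand): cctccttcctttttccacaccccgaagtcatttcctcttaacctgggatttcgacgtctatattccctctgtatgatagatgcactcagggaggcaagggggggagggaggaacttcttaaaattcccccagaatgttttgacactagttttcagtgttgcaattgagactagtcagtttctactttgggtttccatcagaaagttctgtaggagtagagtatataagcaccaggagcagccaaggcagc
Il12a, second start, chr3:68691174-68691423 (plus strand): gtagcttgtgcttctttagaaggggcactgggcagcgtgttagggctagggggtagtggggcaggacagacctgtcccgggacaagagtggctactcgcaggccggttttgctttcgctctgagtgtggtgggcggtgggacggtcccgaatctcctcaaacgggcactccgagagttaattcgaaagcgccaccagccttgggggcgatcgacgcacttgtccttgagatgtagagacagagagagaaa
RefSeq windows were at hand for 7 members, in 8 windows, since Il12a has 2; none was matched for Il23a, Il27 and Osm. Searched on both strands were the kappaB consensus (by name), C/EBP (TTNNGCAA), AP-1 (TGANTCA), the CRE half-site (TGACGT), the ISRE (GAAA repeated after any 2 bases) and TATAAA. The Il6 window held 4 matches: the kappaB match GGGATTTTCC at bases -44 to -35 from the start, the C/EBP match TTGTGCAA at -128 to -121, ACGTCA, the reverse complement of the CRE half-site, at -136 to -131, and the AP-1 match TGAGTCA at -249 to -243. Ebi3 held the kappaB match GGGGCTTCCC, also at -44 to -35, and Lif held the AP-1 match TGACTCA at -228 to -222. The windows of Il12b, Il12a, Il6ra and Il6st held none of these letters, which says nothing of the factors themselves. Among 32851 mouse windows of the same length, 3.90% held the kappaB consensus, 9.56% the C/EBP motif, 6.75% AP-1, 6.47% the CRE half-site, 2.98% the ISRE and 12.4% TATAAA. CpG numbers were low in most cytokine windows and high in the receptor windows: Ebi3 held 2 CpG, Il6 and Il12b held 3 each, Lif 6, Il6ra 18 and Il6st 26, against a median of 6 (quartiles 2 and 16). The 2 starts of Il12a lie on opposite sides of that median, with 2 CpG before the first and 15 before the second.

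Of the 10 members, 7 were detected (70.0%), against 16.7% of annotated genes (9276 of 55536) and 40.1% of protein-coding genes (8838 of 22028). The detected members were Ebi3, Il6, Il27, Il12b, Il6st, Il6ra and Osm, in falling order of mean TPM, and Il23a, Il12a and Lif stayed below 1 TPM in every library. Ebi3 led in all 3 libraries. The ranges over the libraries overlapped between Il6 and Il27, Il27 and Il12b, and Il12b and Il6st, each pair keeping its order in 2 of 3 libraries, so these 4 genes are not separated beyond their spread. Il6st over Il6ra, Il6ra over Osm and Osm over Il23a held in 3 of 3 libraries, Il23a and Il12a overlapped, and Lif was below Il12a in all 3.

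**Figure D1:**
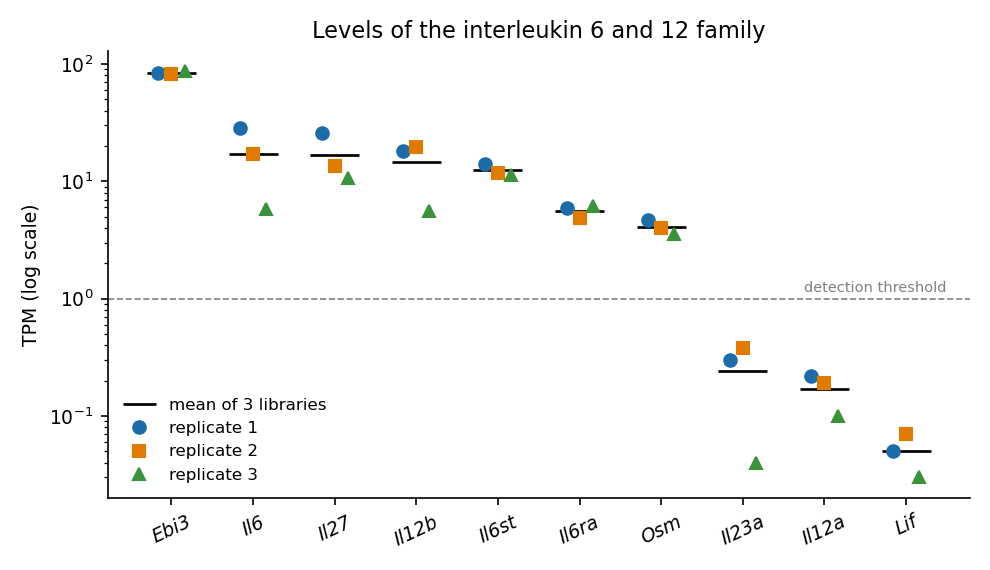
TPM of each member (vertical axis, log scale) in the 3 libraries, with points for the libraries, bars for their mean and a dashed line at the detection threshold of 1 TPM. Ebi3 stands at 82.3 to 87.1 TPM, Il6, Il27 and Il12b spread widely between libraries, and Il23a, Il12a and Lif lie below the line.

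Among the single-chain ligands, Il6 (ENSMUSG00000025746.11, chr5:30013114-30019981, plus strand), the acute-phase inducer, had 28.6, 17.0 and 5.85 TPM in replicates 1, 2 and 3, from 1570, 1825 and 462 counts. Its mean was 17.1 ± 11.4 TPM (SD, n = 3), higher than that of 70.8% of detected genes. The 3 libraries do not overlap on the deposited intervals of TPM, 26.8 to 29.9, 16.1 to 17.7 and 5.31 to 6.49, whose level is not stated in the files. Osm, oncostatin M (ENSMUSG00000058755.3, chr11:4236420-4241026, plus strand), had 4.67, 4.02 and 3.56 TPM from 577, 943 and 613 counts, with a mean of 4.08 ± 0.558 TPM (SD, n = 3). Lif, leukaemia inhibitory factor (ENSMUSG00000034394.14, chr11:4257557-4272514, plus strand), had 0.05, 0.07 and 0.03 TPM from 11, 32 and 9 counts. Osm and Lif are neighbours on chromosome 11, 16530 bases apart with no annotated gene between them, yet Osm stood above Lif by 6.55, 5.84 and 6.89 on the log2 scale of TPM, an 86.0-fold difference on average (6.43 ± 0.53, SD, n = 3). Osm relative to Il6 gave -2.61, -2.08 and -0.72 (-1.80 ± 0.98), and the smallest gap, in replicate 3, is where Il6 itself was lowest.

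Of the alpha subunits, Il27 (p28, ENSMUSG00000044701.5, chr7:126589010-126594941, minus strand) was the one detected, with 26.0, 13.4 and 10.6 TPM from 1267, 1265 and 736 counts and a mean of 16.7 ± 8.23 TPM (SD, n = 3). Replicate 1 was above both others, and the deposited intervals of 24.2 to 27.0, 12.5 to 14.0 and 9.71 to 11.2 TPM do not overlap. Its annotated span shares 103 bases with Apobr on the opposite strand, which had 19.5, 21.9 and 18.9 TPM and a different library order. Il12a (p35, ENSMUSG00000027776.12, chr3:68690644-68698547, plus strand) had 0.220, 0.190 and 0.100 TPM from 14, 23 and 9 counts. Il23a (p19, ENSMUSG00000025383.2, chr10:128296139-128298752, minus strand) had 0.300, 0.380 and 0.0400 TPM from 21, 52 and 5 counts. Both are low in every library. Their lowest value here is in replicate 3, but the deposited intervals of Il12a overlap between all libraries. From the second of the 2 deposited transcript tables, Il23a had 0.189, 0.408 and 0.203 TPM, lowest in replicate 1.

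Of the beta subunits, Ebi3 was the most abundant member of the family. Ebi3 (ENSMUSG00000003206.7, chr17:55952640-55957022, plus strand) had 84.3, 82.3 and 87.1 TPM from 4807, 9085 and 7088 counts, a mean of 84.6 ± 2.41 TPM (SD, n = 3), higher than that of 93.1% of detected genes. Its coefficient of variation was 2.84% on the deposited TPM, but with TPM rescaled over nuclear protein-coding genes its level was 254, 279 and 312, a mean of 281 ± 28.7 (SD, n = 3), highest in replicate 3 on both scales. An antisense gene, Gm16712, overlaps it by 2252 bases with 0.630, 0.660 and 0.730 TPM. The sources do not state if counting used strand, so reads of such overlaps cannot be told apart. Il12b (p40, ENSMUSG00000004296.14, chr11:44400063-44414033, plus strand) had 18.2, 19.7 and 5.56 TPM from 1841, 3824 and 801 counts, a mean of 14.5 ± 7.76 TPM (SD, n = 3). Replicate 3 lay far below the other 2 libraries, with deposited intervals of 17.1 to 18.7, 18.9 to 20.1 and 5.12 to 5.88 TPM.

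Set against their partners in the same library, beta subunits exceeded alpha subunits for each dimer known to hold them. Ebi3 exceeded Il27 by 1.70, 2.62 and 3.04 on the log2 scale of TPM (2.45 ± 0.69, SD, n = 3, 5.48-fold), so that the Il27 level was 30.9, 16.2 and 12.1% of the Ebi3 level. Il12b exceeded Il23a by 5.92, 5.70 and 7.12 (6.25 ± 0.76), but replicate 3 rests on 5 Il23a counts. The Il12a level was 1.21, 0.964 and 1.80% of the Il12b level, and Il12a relative to Ebi3 gave -8.58, -8.76 and -9.77 (-9.04 ± 0.64). The beta subunits themselves differed: Il12b relative to Ebi3 gave -2.21, -2.06 and -3.97 (-2.75 ± 1.06), lower in 3 of 3 libraries. Il6 relative to Il12b gave 0.65, -0.21 and 0.07 (0.17 ± 0.44), a difference smaller than its spread. Of the 12 pairs compared, 11 have a mean over the libraries. An exact sign-flip test over 3 libraries cannot go below p = 0.25, so no p is given for these ratios, which compare messenger RNA and not protein.

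The receptor chains stood at moderate levels. Il6st (gp130, ENSMUSG00000021756.12, chr13:112464070-112510086, plus strand) had 14.1, 11.9 and 11.4 TPM from 6531, 10731 and 7455 counts, a mean of 12.5 ± 1.41 TPM (SD, n = 3). Il6ra (ENSMUSG00000027947.11, chr3:89864059-89913196, minus strand) had 5.91, 4.88 and 6.13 TPM from 1886, 2932 and 2791 counts, a mean of 5.64 ± 0.667 TPM (SD, n = 3). Il6st exceeded Il6ra by 1.25, 1.29 and 0.89 on the log2 scale of TPM (1.14 ± 0.22, 2.21-fold), the same direction in 3 of 3 libraries. Their libraries span less than those of Il6, Il27 and Il12b, although Il6ra was lowest in replicate 2 and Il6st in replicate 3. For each of these chains, 2 library pairs were still separate on the deposited intervals.

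The other receptors that pair with gp130 or bind the family's ligands were either detected or below 1 TPM in every library. Of 9 listed, 4 were detected: Il12rb1, the shared chain of the IL-12 and IL-23 receptors, at 14.5 ± 5.36 TPM, Il11ra1 at 13.1 ± 0.581, Il12rb2 at 4.51 ± 0.842 and Il23r at 2.52 ± 0.834 (SD, n = 3 each). The partners that gp130 needs for LIF, oncostatin M and IL-27 were the low ones. Lifr had 0.260, 0.380 and 0.380 TPM from 101, 297 and 254 counts, and was thus low but measured. Il27ra had 0.0300, 0.0100 and 0.05 TPM. Osmr had 0, 0 and 2 counts, and Cntfr and Il31ra had 0 counts in every library. Il6st exceeded Lifr by 5.21 ± 0.47 and Il27ra by 8.97 ± 1.20 on the log2 scale of TPM (SD, n = 3 each), and the Il27ra value rests on 4, 4 and 10 counts. Of the 7 other ligands listed none was detected: Clcf1 was highest at 0.267 ± 0.0603 TPM, followed by Ctf2 and Cntf, and Il11, Ctf1 and Il31 had 0 counts in every library.

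Downstream of the receptors, 9 of 10 listed JAK, STAT and feedback genes were detected. Socs3, the inhibitor that binds gp130, averaged 136 ± 28.7 TPM, and Jak1 averaged 36.9 ± 3.02 TPM (SD, n = 3 each). The lowest were Pias3 at 2.85 ± 0.271 TPM, Socs1 at 1.40 ± 0.341 TPM and Stat4, the IL-12 signal transducer, which at 0.910 ± 0.329 TPM was not detected. All 12 transcription factors listed for these cytokine genes were detected, with Irf1 (270.1 ± 98.0 TPM), Nfkbiz (177 ± 53.5), the co-activator needed for Il6 and Il12b transcription, and Atf3 (145 ± 76.0), a repressor of both, the highest, and Irf3 (10.1 ± 0.655) the lowest. All 6 genes of cytokine mRNA decay or stability were detected. Zfp36, which binds AU-rich stretches, averaged 152 ± 72.1 TPM, Zfp36l1 55.2 ± 7.69, the Il6 mRNA nuclease Zc3h12a 36.5 ± 5.25 and Rc3h2 6.58 ± 1.33. Of the proteases that shed Il6ra, Adam17 averaged 37.2 ± 3.60 TPM and Adam10 17.7 ± 0.595 (SD, n = 3 each).

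Il6, Il12b and Il27 differed between the libraries by more than genes of like abundance. With edgeR, the residual deviance of each gene around 1 common mean was tested under the trended dispersion, on TMM-scaled rounded expected counts, with Benjamini-Hochberg adjustment over 12256 genes. Il6, Il12b and Il27 passed an adjusted p of 0.05, which is 3 of the 7 members with enough counts to be tested, and 1.96% of all tested genes (240) passed it. Il6 had 40.5, 25.2 and 9.15 CPM (counts scaled to library size) in replicates 1, 2 and 3, a 4.41-fold range (adjusted p = 1.21e-09, edgeR). Il12b had 47.5, 52.8 and 15.9 CPM, a 3.32-fold range (adjusted p = 3.00e-07, edgeR). Il27 had 32.7, 17.5 and 14.6 CPM, a 2.24-fold range (adjusted p = 0.00527, edgeR). All 3 genes were lowest in replicate 3, but Il12b was highest in replicate 2, where Il27 was already low.

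**Figure D2:**
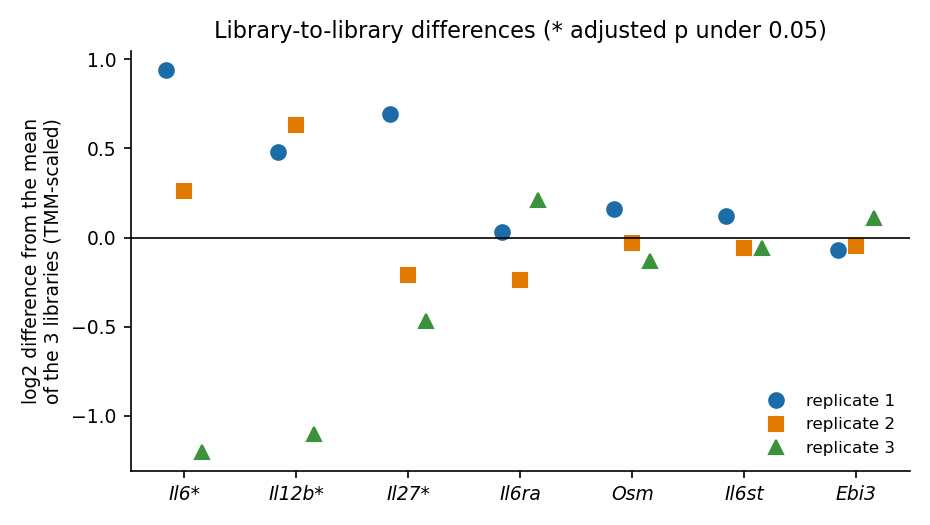
Log2 difference of each library from the mean of the 3 libraries, on TMM-scaled counts, for the 7 tested members, with a point per library and an asterisk at an adjusted p under 0.05. Replicate 3 lies at -1.20 for Il6 and at -1.10 for Il12b, while Ebi3, Il6st and Osm stay close to 0.

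The biological coefficient of variation fitted to Il6 was 42.3%, against 13.3% for the trend at its abundance. For Il12b it was 37.1%, against 13.1%, and for Il27 it was 27.4%, against 13.4%. The highest and lowest library of Il6 were further apart than those of 99.7% of tested genes, and the shares were 99.1% for Il12b and 95.6% for Il27. The calls of Il6 and Il12b rest on replicate 3, and that of Il27 needs both replicates 1 and 3. Without replicate 3, none of 10 tested members passed with edgeR (2 at an unadjusted p under 0.05), with adjusted p of 0.487 for Il6, 0.124 for Il27, still 32.7 against 17.5 CPM in replicates 1 and 2, and 1 for Il12b, and 82 genes were called in all. Without replicate 1, Il6 and Il12b passed and Il27 did not (adjusted p = 1), with 119 genes called; without replicate 2 all 3 passed, with 102 genes called.

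The remaining tested members were not called (adjusted p = 1 each, edgeR). Ebi3 had a range of 0.18 on the log2 scale, Il6st of 0.19, Osm of 0.29 and Il6ra of 0.45, against a median of 0.30 over all tested genes (10th and 90th percentiles 0.10 and 0.85). The 2 chains of IL-27 thus fell on opposite sides of the threshold, Il27 at 1.16 and Ebi3 at 0.18, as did the 2 beta subunits. Whether the members of each pair differ in variability was not itself tested. Of the 7 members, 4 were highest in replicate 1, against 35.1% of tested genes, and 5 were lowest in replicate 3, against 31.7%, on TMM-scaled counts. On the deposited TPM the members' counts were also 4 and 5, but 45.9% of tested genes were highest in replicate 1 and 50.1% lowest in replicate 3.

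**Figure D3:**
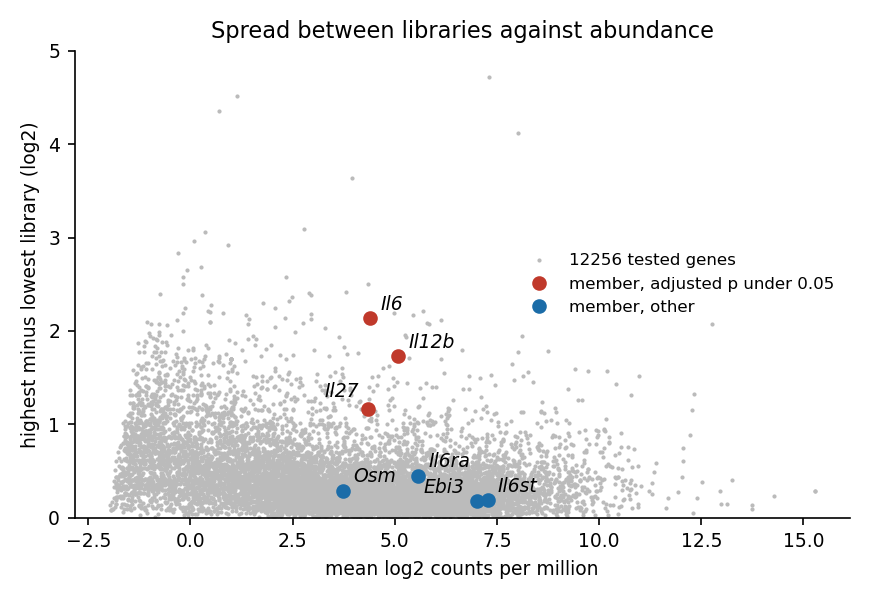
Highest minus lowest library (log2, vertical axis) against mean log2 CPM for the 12256 tested genes (grey), with members marked in red where the adjusted p was under 0.05 and in blue elsewhere. Il6, Il12b and Il27 stand above most genes of their abundance, whereas Osm, Il6ra, Ebi3 and Il6st lie within the bulk.

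Among the genes around the family, 2 of 12 transcription factors were called by the same edgeR test, against 1.96% of all tested genes. Both were highest in replicate 1, as were 7 of the 12 listed factors and 35.1% of tested genes. Cebpb, an activator of Il6, had 52.1, 19.2 and 23.5 TPM and a TMM-scaled range of 1.40 on the log2 scale (adjusted p = 6.63e-05), and Atf3 had 231, 114 and 89.4 TPM and a range of 1.24 (adjusted p = 0.0166). Cebpb was lowest in replicate 2 and so did not follow the library order of Il6, while Atf3 did. That order was not particular to Atf3. Irf1, Nfkbiz and Rel of the same list, which were not called, were also highest in replicate 1 and lowest in replicate 3. Of 5 tested receptors outside the members 1 was called, Il12rb1, with 20.3, 9.70 and 13.4 TPM (range 1.04, adjusted p = 0.0389). None of the 10 JAK, STAT and feedback genes, 6 mRNA decay genes or 2 shedding proteases was called, nor were the 2 tested ligands outside the members. The decay genes Zfp36 (range 1.05, adjusted p = 0.0727, edgeR) and Arid5a (0.94, adjusted p = 0.102) missed the threshold, both highest in replicate 1. Ranges of the other decay genes were 0.28 for Zc3h12a and Rc3h1, 0.47 for Rc3h2 and 0.45 for Zfp36l1. The part of all these genes in the spread of the members was not tested.

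In 6 of 8 ligand genes, all but Ebi3 and Lif, the 3′ UTR of the leading transcript was dense in the AU-rich pentamer ATTTA. Dense here means above the 90th percentile given below. ATTTA is the core of the elements that Zfp36 and related proteins bind. The 30-base stretches with most pentamers, in capitals, are shown for the 5 densest members, from the GENCODE M21 transcripts. Overlapping pentamers were each counted, here and in the numbers below.
Il27-201: ccagatATTTAtttcttggatATTTATTTA
Il6-201: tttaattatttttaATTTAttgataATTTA
Il12a-202: gcctATTTAtATTTATTTAttttctATTTA
Il23a-201: agtatagatgatggttATTTAttctATTTA
Il12b-201: ATTTAagtaATTTAtgtATTTAttaATTTA
They begin at bases 176, 129, 384, 580 and 237 of the 3′ UTR. Il27-201 held 5 pentamers in 285 nt, or 17.5 per kb. That is more than in 99.8% of the 8564 detected protein-coding genes whose leading transcript had a 3′ UTR long enough to be scored. Il6-201 held 6 in 427 nt (14.1 per kb), Il12a-202 6 in 493 nt (12.2 per kb), Il23a-201 6 in 657 nt (9.13 per kb), Il12b-201 6 in 797 nt (7.53 per kb) and Osm-201 6 in 1017 nt (5.90 per kb), all above the 90th percentile of 4.29 per kb. The nonamer TTATTTATT, found in 6.68% of those genes, occurred 2 times in Il27-201 and in Lif-201, and 1 time each in Il12a-202 and Il23a-201. Ebi3-201 held 1 pentamer in 245 nt (4.08 per kb), more than in 88.6% of those genes. It fell just short of the 90th percentile, and its density rests on that 1 pentamer. Lif-201 held 7 in 3180 nt (2.20 per kb), Il6st-203 9 in 5641 nt (1.60 per kb) and Il6ra-201 1 in 1837 nt (0.544 per kb), against a median of 1.29 per kb. The 3 members called variable are among the 6 densest, but so are Osm, which was not called, and Il12a and Il23a, which had too few counts to be tested.

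**Figure D4:**
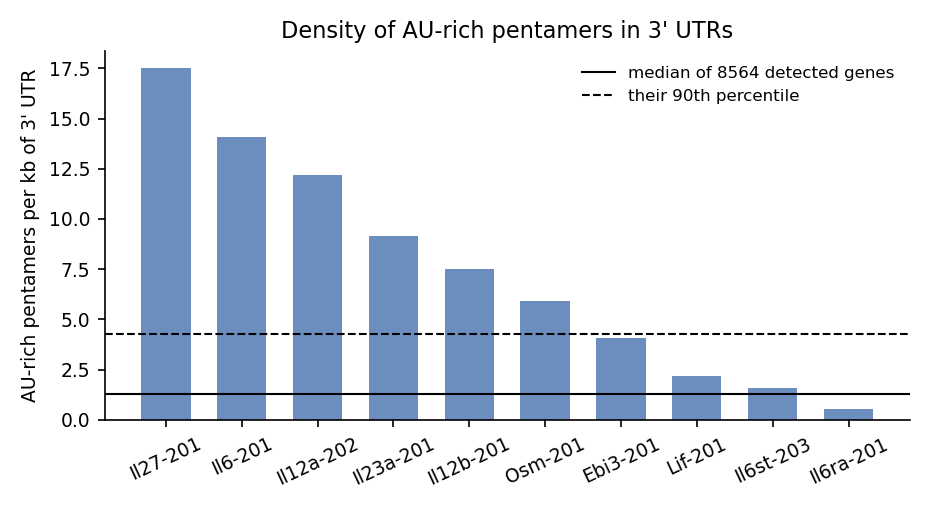
ATTTA pentamers per kb of 3′ UTR in the leading transcript of each member (bars), with the median (solid line) and 90th percentile (dashed line) of 8564 detected protein-coding genes. From Il27-201 at 17.5 to Osm-201 at 5.90 per kb the bars lie above the dashed line, and Il6ra-201 lies below the median.

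The members have 33 annotated transcripts, of which 15 took 10% or more of their gene's TPM in either of the 2 deposited transcript tables. Il27, with 1 annotated transcript like Ebi3, and Il12b had all or nearly all of their level in 1 form (Il12b-201 at 100.0 and 99.4% in the first and second table). Il12a was assigned in full to Il12a-202 in both tables and all 3 libraries, from 9 to 23 counts in the first. Its start lies 780 bases downstream of that of Il12a-201, which had 0 counts, and its coding sequence is 648 nt against 711 nt. The annotated start of Il12a-202 is the one whose window is shown above with 15 CpG. Assignment of so few counts to a transcript does not measure which start was used. For Il6, Il6-201 took 92.3, 93.1 and 84.1% in the first table, and Il6-204 took 3.39, 3.55 and 11.1%. The share of Il6-204 was thus largest in replicate 3, the library with least Il6, and the second table gave the same library order for this transcript (7.93, 10.7 and 16.3%). In counts, not scaled for depth, Il6-204 had 43.7, 52.9 and 41.7 in the first table and 111.2, 172.2 and 66.7 in the second. Because depth differed between the libraries, these counts do not rank them. Il6-201 had 1482.7, 1720.9 and 394.2 counts in the first table and 1485.5, 1665.3 and 390.8 in the second. Osm-201 took 95.1 ± 1.21% in the first table and 94.8 ± 1.14% in the second (SD, n = 3). Lif was assigned to Lif-201 in full in replicates 1 and 3 and by 87.3% to Lif-202 in replicate 2 in the first table, from at most 32 counts.

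The 2 transcript tables gave different shares to the forms of the receptors. Il6st-203, with a 3′ UTR of 5641 nt, took 72.1 ± 2.84% in the first table and 40.8 ± 1.55% in the second, while Il6st-201, with 2415 nt, took 27.4 ± 2.71% and 57.1 ± 1.56% (SD, n = 3). Both encode the same length of 2754 nt, and which of them leads depends on the table. Il6ra-201, with a 3′ UTR of 1837 nt, took 62.4 ± 0.661% in the first table and 76.0 ± 0.571% in the second, and led in both; Il6ra-202, with 7102 nt, took 37.6 and 24.0%. The difference between the tables was larger than the spread between libraries for both receptors. For Il23a, the retained-intron transcript Il23a-202 took 0, 1.61 and 39.0% in the first table and 14.2, 50.2 and 92.3% in the second. Few counts stand behind Il23a, and its coding transcript Il23a-201 had 50.9 counts in the first table and 49.5 in the second in replicate 2, and 2.7 and 3.2 in replicate 3.

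**Figure D5:**
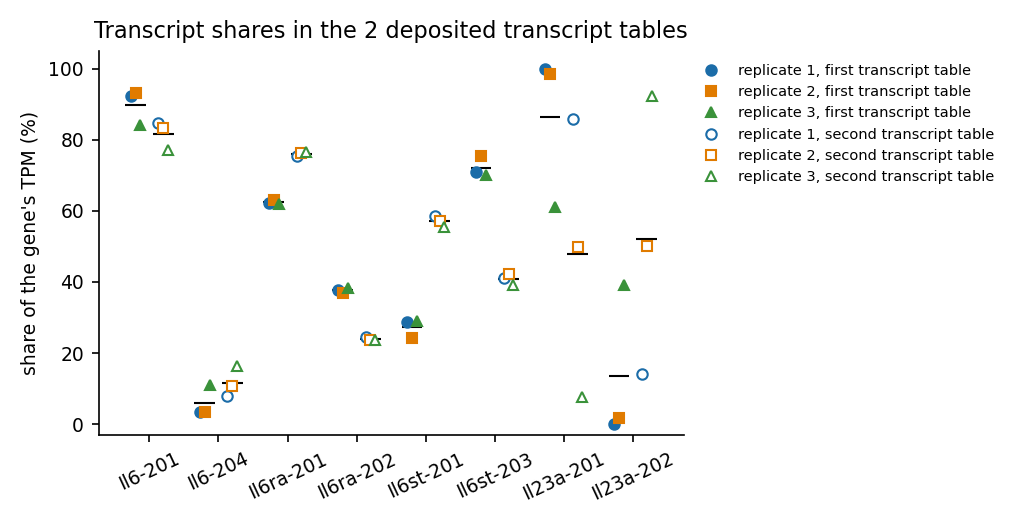
Share of the gene's TPM (percent, vertical axis) taken by the leading transcripts of Il6, Il6ra, Il6st and Il23a in the first (filled) and second (open) transcript table, with a point per library and a bar for the mean. Il6st-203 lies near 72.1% in the first table and 40.8% in the second, and Il23a-202 spreads from 0 to 92.3%.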

How the data were processed

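Cytosolic total RNA was sequenced in 3 libraries. Per the labels, inserts were 250 to 400 nt and each library took 1 µg of RNA. The README notes deposited with the samples give the mm10 build and GENCODE M21, transcriptome alignments as the source of the gene table and of the transcript table called first here, and FASTQ files as that of the second. Which programs were run is not given in these sources. The deposited expected counts (estimated counts in the second table) are not normalized, per the file headers. The TPM were length-corrected by the authors and used as deposited. The percent share of each transcript in the first table is the authors' own, and that in the second was computed from its TPM. The deposited interval bounds and posterior SD of counts come from the authors' program, as scores in TPM and counts; the posterior SD was at most 1.08 counts for any member.

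Members were matched by symbol and all 10 were found. The members and gene lists were chosen with earlier results of these data known. Named were all members, every gene of the pairs, the 3 highest and up to 3 lowest genes of each other list, and transcripts at 10% or more; other list members were named for detection, for 0 counts or for variability after their values were seen. Some list genes are not reported here. Levels are mean ± SD, and ratios carry no pseudocount. Expected counts were rounded for edgeR 4.0.16 (R 4.3.3) with filterByExpr and TMM, a script tested on simulated data. Sequences outside annotated genes (0.0959 to 0.227% of counts) were left out of library sizes. Promoter windows come from RefSeq (GRCm38.p6), and 3′ UTRs from GENCODE M21 transcripts. The background for pentamers is the leading coding transcript of each detected protein-coding gene, where its 3′ UTR reached a minimum length. Alternatives, 31 in all, were other scalings, thresholds and dispersions, no filter, the second table, DESeq2 1.42.0 size factors and leaving out each library.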

Additional observations from a re-analysis of the deposited data

How the results depend on the processing

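No paired analysis was possible because the study holds 1 group. The median level of the members was 9.05 TPM, 5.81 from the second transcript table and 30.0 with TPM rescaled over nuclear protein-coding genes; single members moved to between 0.538 and 1.11 times their level in the second table and 3.21 to 3.33 times on the rescaled values. With 5 TPM as the threshold 5 members were detected, and 7 under every other setting run. Of the log2 ratios, Il6/Il12b (0.17) reversed on expected counts (-0.70) and without replicate 1 (-0.07), and was 0.36 without replicate 2. A pseudocount of 1 TPM gave 3.56 for Il12b/Il12a, 3.48 for Il12b/Il23a, -6.19 for Il12a/Ebi3, 2.27 for Osm/Lif, 3.32 for Il6st/Lifr and 3.70 for Il6st/Il27ra. Expected counts, which are not per length, gave 6.96 for Il12b/Il12a, -0.66 for Osm/Il6, 5.56 for Osm/Lif, 1.69 for Il6st/Il6ra and 10.53 for Il6st/Il27ra, and the second table gave 4.93 for Il12b/Il23a. The members called variable by edgeR, 3 in the main run, numbered between 0 and 3 when each library was left out. They numbered 3 under DESeq2 size factors, without the filter, with a common dispersion and from the second table. With a common dispersion Il27 only just passed (adjusted p = 0.046, edgeR). All genes called numbered 82 to 119 on leaving out a library, which uses fewer samples, against 240. Depth limits Lif, Il12a and Il23a, with 5 to 52 counts a library.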

Other observations

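The quantifications differed most for Il23a among the members. Relative to the median of 9204 detected genes, the second transcript table over the gene table gave log2 ratios of 0.25, 0.84 and 3.23 for Il23a in replicates 1, 2 and 3. Its gene-level counts were 28.4, 115 and 52.9 in the second table and 21, 52 and 5 in the gene table, and in replicate 3 the second table placed 49.8 counts on the retained-intron transcript Il23a-202, where the first placed 2.3. The 7 detected members stayed within 0.29 of that median in every library, the highest being Il6ra at 0.22, 0.25 and 0.29. The cause of the difference was not tested.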
